A study of Homo sapiens with 12 samples.

Results

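Levels and knockout responses were followed for 10 structural genes of the epithelial and mesenchymal cytoskeleton: the keratins KRT7, KRT8, KRT18, KRT19 and KRT80, vimentin (VIM), and the desmosomal plaque genes DSP, JUP, PKP2 and PKP3. They were chosen by symbol from the 59050 gene rows in the count tables, and KRT19, PKP2, KRT8 and KRT18 were picked, from earlier results of these data, as candidates for a response that depends on the cell line. For those 4 genes the responses are therefore given as a description, without p-values. The polyadenylated RNA came from 2 established human lines, A549 and NCI-H1299 (H1299), both derived from lung cancers, in 4 groups with 3 libraries each: A549 wild type, A549 with PA200 knocked out by CRISPR/Cas9, H1299 wild type, and H1299 with the same knockout. PA200, the product of PSME4, is a nuclear activator of the proteasome. All cells were grown for 48 h, and no group received a drug. Nothing in the labels tells clones from repeat cultures within a group, so the p-values measure only the spread between libraries, which may be technical.

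Keratins are the intermediate filament proteins of epithelia. A filament is assembled from pairs of a type I chain (here KRT18 and KRT19) and a type II chain (KRT7, KRT8 and KRT80), and KRT8 with KRT18 is the usual pair of simple epithelia. Vimentin forms the filaments of mesenchymal cells and is often present in cultured carcinoma lines. Desmosomes are junctions that tie the keratin filaments of neighbouring cells together. In their plaque, plakoglobin (JUP) and the plakophilins (PKP2, PKP3) bind the desmosomal cadherins, and desmoplakin (DSP) links the plaque to the filaments.

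Total counts per library ran from 16599401 to 40983933, and in A549 the knockout libraries were all deeper than the wild-type ones. PSME4 stood at 17.1 to 23.6 CPM (counts scaled to the effective library size over all 12 libraries) in A549 knockout against 142 to 197 in wild type. In H1299 PSME4 stood at 49.7 to 54.3 CPM in the knockout against 218 to 258 in wild type. As a check of the line, CDKN2A, which A549 is known to lack, had 0 counts in every A549 library and 28.4 to 50.5 CPM in H1299. Among the defining epithelial markers, CDH1 had 2 to 7 counts, EPCAM 0 to 2 counts and KRT19 0 to 2 counts in every H1299 library. KRT8 and KRT18 were present in both lines. EPCAM was low in A549 too, at 1.51 to 4.93 CPM in wild type and 6.64 to 6.97 in the knockout. CDH1 was at 35.9 to 58.7 and 68.6 to 81.7 CPM in the same A549 groups. Markers of leukocytes summed to 18.8 to 34.4 CPM in A549 wild type, 20.5 to 28.1 in A549 knockout, 66.0 to 94.1 in H1299 wild type and 67.0 to 77.1 in H1299 knockout. Most of each sum was CD68, at 13.9 to 28.2, 15.5 to 23.0, 61.1 to 91.8 and 61.3 to 71.9 CPM in the same order. PTPRC and CD3E had 0 counts in every library. Markers of fibroblasts and endothelium summed to at most 10.6 CPM in any library. In bulk RNA, fewer cells expressing a gene and less RNA per cell cannot be told apart.

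KRT8 and KRT18 have large families of processed pseudogenes, so part of their reads may be assigned to near-identical copies. The tables held 50 rows named as KRT8 pseudogenes, 67 as KRT18 pseudogenes and 5 as KRT19 pseudogenes. The start of the KRT18 coding sequence is shown beside one of its most counted pseudogenes, to show how few bases separate the copies. Sequences are from GENCODE 29 on GRCh38, 60 bases each, and capitals mark the bases that differ. KRT18P17 lies at chr3:12787393-12788671 on the minus strand and matched the KRT18 coding sequence at 93.0% of 1289 aligned columns. KRT18 itself lies on chromosome 12. The stretch shown starts at base 2 of the coding sequence, and the pair differs there at 2 bases.
KRT18: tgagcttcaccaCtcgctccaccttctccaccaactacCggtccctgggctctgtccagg
KRT18P17: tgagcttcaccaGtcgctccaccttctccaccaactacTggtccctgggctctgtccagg

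In A549 the summed counts of the KRT8 pseudogene rows were 7.09% to 8.41% of the KRT8 count, and those of KRT18 3.92% to 4.67% of the KRT18 count. In H1299 the KRT18 pseudogene rows came to 4.13% to 5.73% of KRT18. The KRT8 pseudogene rows came to 16.4% to 37.1% of KRT8 in H1299, and 1 row held most of these counts: without KRT8P12, on chromosome 3, they were 3.95% to 5.25%. KRT8P12 had 293 to 533 counts in the H1299 libraries and 100 to 262 in A549, the reverse of the order of KRT8. With the pseudogene counts added to the parent, the log2 ratio of mean CPM (knockout over wild type) for KRT8 stayed at 0.34 in A549 and moved from -1.03 to -0.91 in H1299. For KRT18 it stayed at 0.44 in A549 and moved from -0.83 to -0.82 in H1299.

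**Figure D1:**
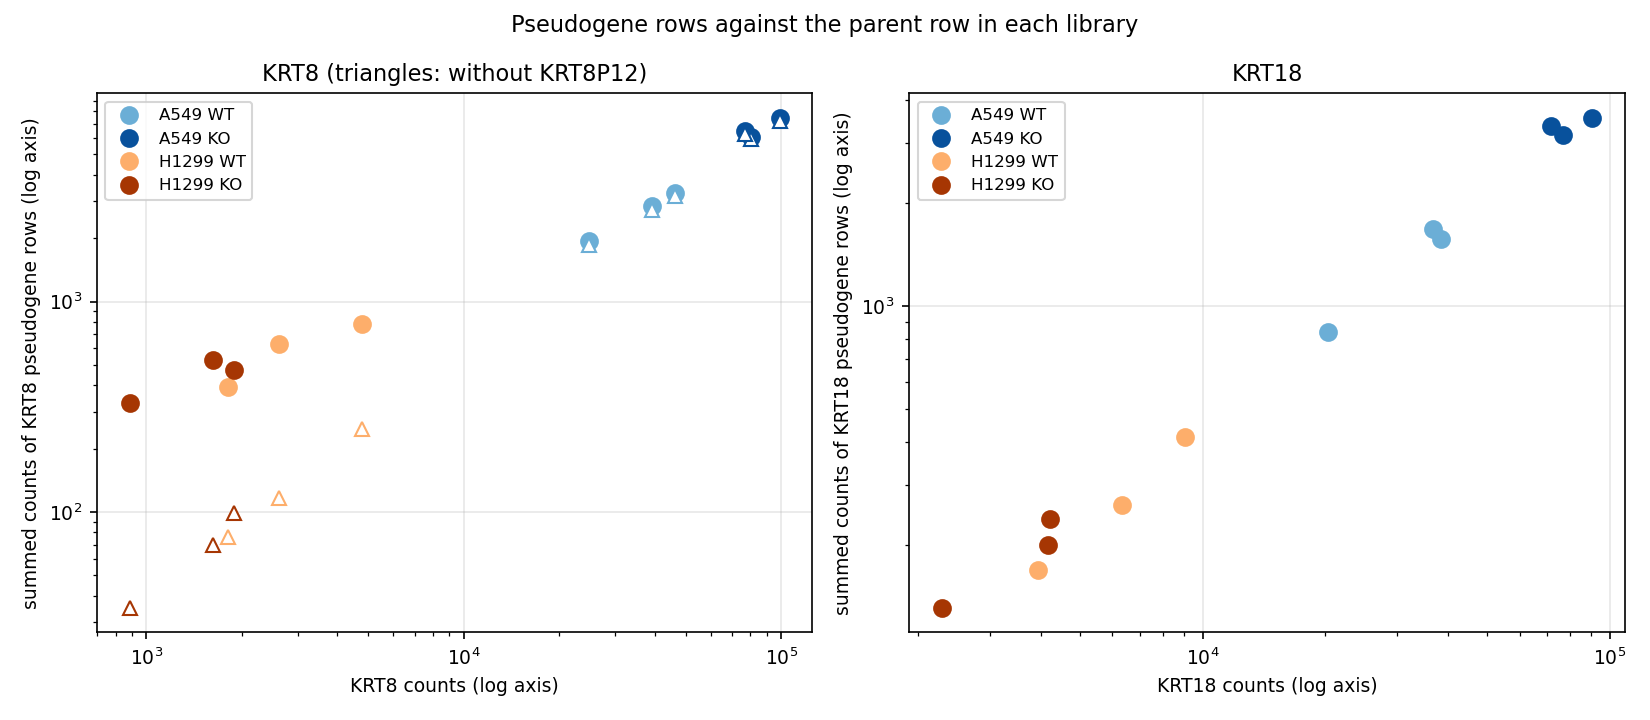
Counts of the KRT8 row (left, x axis) and the KRT18 row (right, x axis) against the summed counts of their pseudogene rows (y axis) in each of the 12 libraries, both axes logarithmic; filled circles are libraries coloured by group. Open triangles leave out KRT8P12, after which the KRT8 pseudogene rows are 3.95% to 8.16% of KRT8 in all libraries.

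The simple-epithelial pair stood far higher in A549 than in H1299, and its fold changes with the knockout had opposite signs in the 2 lines. KRT8 was at 2468, 2271 and 1384 CPM in the A549 wild-type libraries and at 2686, 2577 and 2464 in the A549 knockout libraries. Wild-type replicate 3 was the lowest, and the groups overlapped at 2464 and 2468 CPM. In H1299 KRT8 was at 86.2, 136 and 80.5 CPM in wild type and at 61.04, 36.5 and 51.0 in the knockout, with every knockout library below every wild-type library. The log2 fold change of KRT8, knockout over wild type, was 0.32 (SE 0.20, n = 3 against 3) in A549 and -1.03 (SE 0.22, n = 3 against 3) in H1299. Without A549 wild-type replicate 3 the A549 value was 0.12, and without H1299 wild-type replicate 2 the H1299 value was -0.75.

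KRT18, the type I partner of KRT8, ran beside it. It was at 2319, 1891 and 1136 CPM in A549 wild type, and its A549 knockout libraries held 2576, 2405 and 2251. Again wild-type replicate 3 was the lowest and the groups overlapped. In H1299 KRT18 was at 210, 259 and 175 CPM in wild type and 135, 94.3 and 132 in the knockout, without overlap. On the log2 scale the change was 0.42 (SE 0.23) in A549 and -0.83 (SE 0.16) in H1299. The A549 value was 0.19 without wild-type replicate 3 and 0.67 without wild-type replicate 1. The difference between the lines, H1299 effect minus A549 effect in a fit over 12 libraries, was -1.37 (SE 0.34) for KRT8 and -1.27 (SE 0.32) for KRT18. These genes lie head to head on chromosome 12, with KRT8 on the minus strand at chr12:52897187-52949954 and KRT18 on the plus strand at chr12:52948871-52952901 (GRCh38, GENCODE 29). Their annotated spans overlap by 1084 bases, and the strand setting of the counting was not given, so reads in the overlap cannot be told apart.

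The other type I keratin, KRT19, is a chain without the usual tail domain and a marker of simple and ductal epithelia. It was at 41.8, 44.7 and 17.1 CPM in A549 wild type and at 134, 158 and 171 in the knockout. Each knockout library was above each wild-type library, and wild-type replicate 3 was again the lowest. Without that library the log2 fold change was 1.83. In H1299 KRT19 had 1, 2 and 0 counts in wild type and 0, 1 and 0 in the knockout, so the difference between the lines was not determined at this depth (-3.43, SE 2.26). A count of 0 allows up to 0.133 CPM in H1299 wild-type replicate 3, the level of 3 counts in that library.

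KRT7, a type II keratin of glandular and simple epithelia, was at 1942, 1556 and 1535 CPM in A549 wild type and at 1273, 1274 and 1261 in the A549 knockout. All knockout libraries lay below all wild-type libraries. The log2 fold change was -0.42 (SE 0.13) and did not pass the test (adjusted p = 0.124, edgeR quasi-likelihood test with Benjamini-Hochberg adjustment over 20093 genes). With DESeq2 the adjusted p was 0.0481, and with a library left out it ran from 0.0957 to 0.364. In H1299 KRT7 had 5, 6 and 3 counts in wild type and 0, 0 and 2 in the knockout. All knockout libraries were lower there too, but the counts did not pass the filter, and the difference between lines in the 12-library fit was not called (-2.17, SE 0.70, adjusted p = 0.111, edgeR). The antisense row KRT7-AS held 20.4% to 23.3% as many counts as KRT7 in every A549 library. KRT86 overlaps KRT7 by 2887 bases on the same strand, and the pseudogene KRT87P by 1721 bases on the other strand. Pooled A549 counts were 1342 in wild type and 3570 in the knockout for KRT86, and 2368 and 6209 for KRT87P. Some reads of these rows may be shared with KRT7.

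KRT80, a type II keratin known from many epithelia and from cells early in differentiation, fell in the H1299 knockout. In H1299 it was at 18.5, 35.2 and 19.7 CPM in wild type and at 6.57, 4.62 and 5.14 in the knockout. The groups were far apart: the lowest wild-type library stood at 18.5 CPM and the highest knockout library at 6.57. This was a log2 fold change of -2.16 (SE 0.26, adjusted p = 0.00271, edgeR quasi-likelihood test), called in every alternative fit and with each library left out, which gave -2.35 to -1.80. In A549 KRT80 was at 124, 129 and 136 CPM in wild type and at 213, 140 and 207 in the knockout. All knockout libraries were higher, knockout replicate 2 only slightly so. The log2 fold change of 0.51 (SE 0.17) did not pass the test (adjusted p = 0.154, edgeR quasi-likelihood test). The difference of the effect between the lines was -2.69 (SE 0.33) with an adjusted p = 0.00174 by the edgeR quasi-likelihood test over 22635 genes, and KRT80 was the only one of the 6 members not picked for a line-specific response whose difference was called. Over all genes tested, 3.48% were called for this difference.

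VIM, which encodes vimentin, was the one member with more RNA in H1299. It was at 1369, 1126 and 1033 CPM in A549 wild type and at 1074, 1170 and 1067 in A549 knockout, overlapping groups with a log2 fold change of -0.11 (SE 0.13, adjusted p = 0.708, edgeR quasi-likelihood test). Its H1299 levels were 2755, 2662 and 2283 CPM in wild type and 2027, 2059 and 2134 in the knockout. All H1299 knockout libraries were lower. The fall was small, -0.31 on the log2 scale (SE 0.075, adjusted p = 0.0373, edgeR quasi-likelihood test), and the call was lost in the 12-library fit (adjusted p = 0.182) and when any of 5 of the 6 libraries was left out (0.0763 to 0.106). The difference of the effect between lines, -0.22 (SE 0.16), was not called (adjusted p = 0.513, edgeR quasi-likelihood test). AL133415.1, annotated on the opposite strand within VIM, held 44.1% to 48.6% as many counts as VIM in all 12 libraries, and VIM-AS1 held 8.67% to 11.97%. Without the strand setting, reads of VIM and of these rows cannot be told apart.

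**Figure D2:**
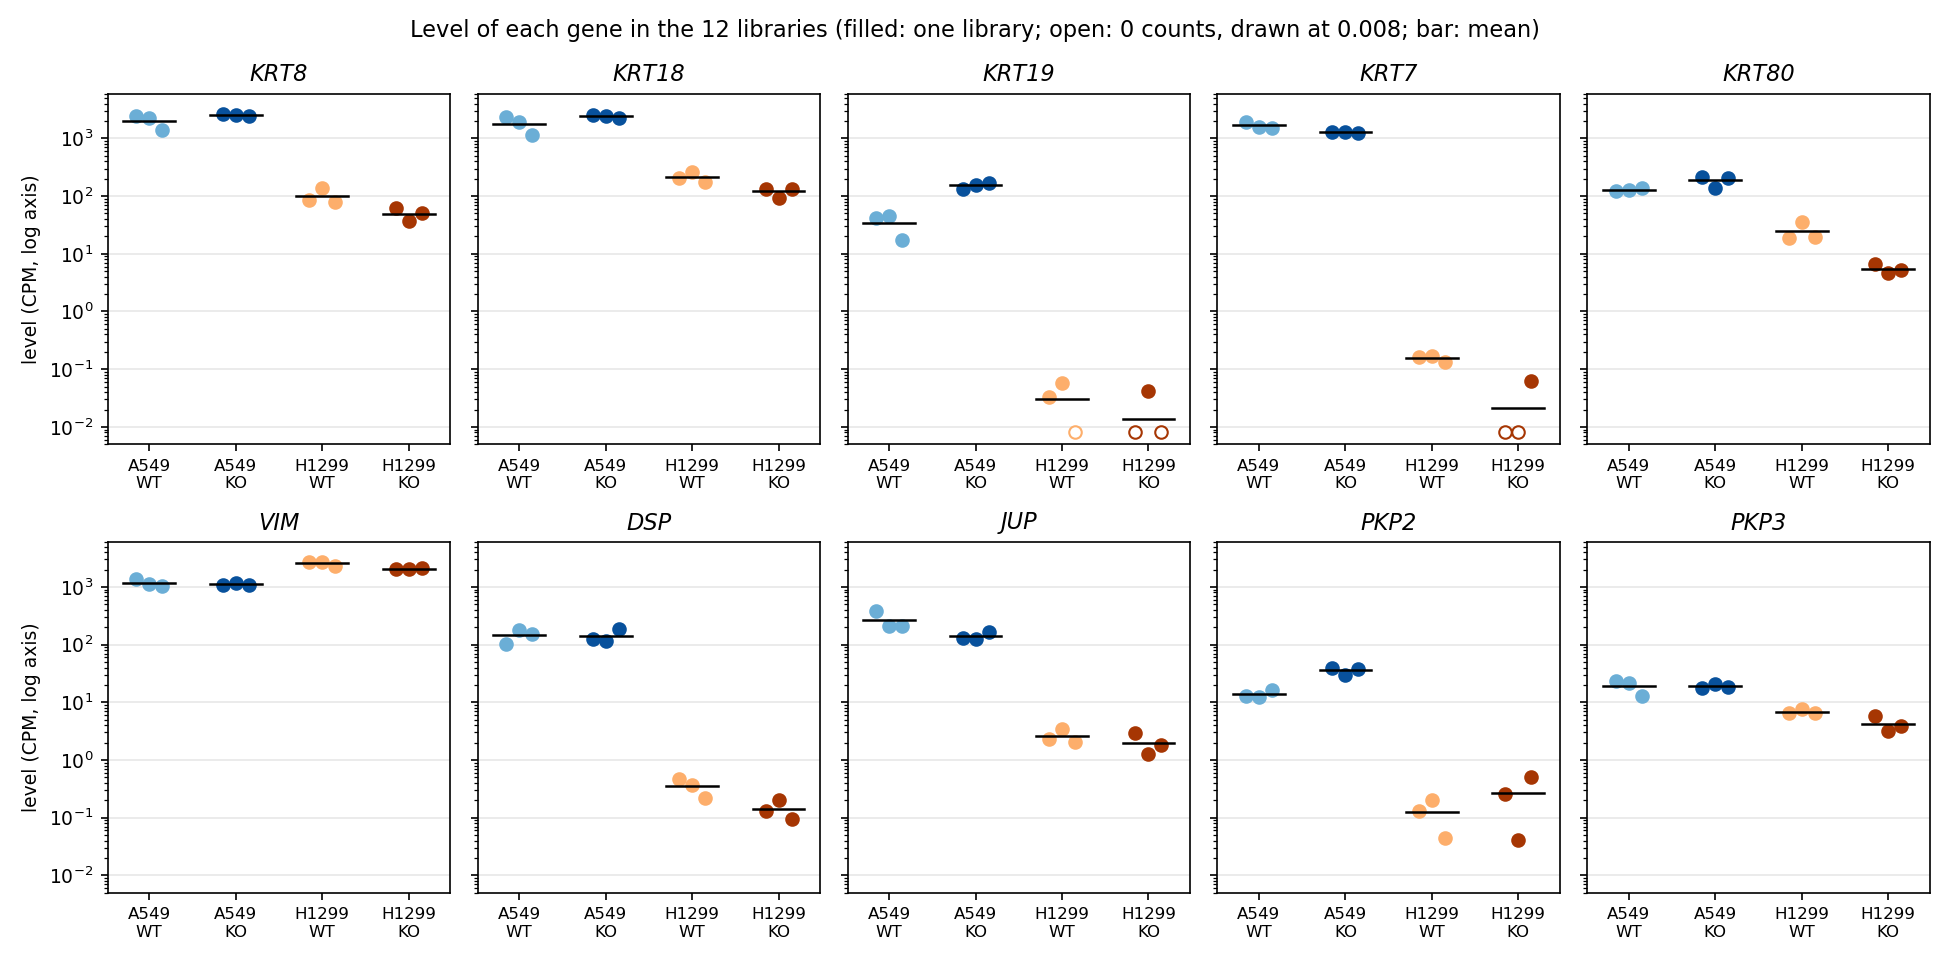
Level of each member in each of the 12 libraries in CPM on a log axis; filled points are libraries, open points are libraries with 0 counts drawn at 0.008, and bars are group means (n = 3). KRT7, KRT19, DSP and PKP2 lie near 0 in H1299, KRT80 falls in the H1299 knockout, and VIM is the one gene that is higher in H1299.

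Among the plaque genes, DSP, which encodes desmoplakin, was at 102, 181 and 154 CPM in wild type and at 123.1, 117 and 183 in the knockout. The groups overlapped over nearly their whole range, with a log2 fold change of -0.06 (SE 0.25, adjusted p = 0.920, edgeR quasi-likelihood test) whose sign turned when any of 3 libraries was left out. In H1299 DSP had 14, 13 and 5 counts in wild type and 4, 5 and 3 in the knockout. All knockout libraries were lower in CPM, but the counts were under the filter, and the difference between lines was not called (-1.32, SE 0.65, adjusted p = 0.310, edgeR).

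JUP, which encodes plakoglobin, was lower in all A549 knockout libraries. It was at 383, 213 and 214 CPM in wild type and at 131, 124 and 163 in the knockout. Wild-type replicate 1 was the highest and the groups did not overlap. The log2 fold change of -0.97 (SE 0.24) did not pass the threshold in the fit over the 6 A549 libraries (adjusted p = 0.0793, edgeR quasi-likelihood test). Limma-voom did not call JUP either. It passed in the 12-library fit (adjusted p = 0.0372), in DESeq2 (adjusted p = 0.00356) and with no filter (adjusted p = 0.00923, edgeR quasi-likelihood test). With a library left out the log2 fold change ran from -1.11 to -0.62, with adjusted p from 0.0517 to 0.224 (edgeR). In H1299 JUP was at 2.35, 3.38 and 2.04 CPM in wild type and 2.95, 1.28 and 1.79 in the knockout. Those groups overlapped, with a log2 fold change of -0.37 (SE 0.31, adjusted p = 0.501, edgeR quasi-likelihood test), and the difference between lines was 0.58 (SE 0.42, adjusted p = 0.517).

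The plakophilins did not share a pattern. PKP2, the plakophilin of simple epithelia and heart, was at 12.9, 12.3 and 16.3 CPM in A549 wild type and at 38.6, 30.1 and 38.5 in the knockout, with all knockout libraries well above. In H1299 it had 4, 7 and 1 counts in wild type and 8, 1 and 16 in the knockout, overlapping groups near the floor. The difference of the PKP2 effect between the lines was -0.33 (SE 0.76), smaller than its error. PKP3, known for its broad presence in epithelial desmosomes, was at 23.2, 21.5 and 12.8 CPM in A549 wild type and at 17.4, 20.8 and 18.7 in the knockout. The A549 groups overlapped (log2 fold change -0.03, SE 0.22, adjusted p = 0.962, edgeR quasi-likelihood test). PKP3 in H1299 was at 6.61, 7.59 and 6.53 CPM in wild type and at 5.80, 3.13 and 3.89 in the knockout. All H1299 knockout libraries were lower, but the log2 fold change of -0.69 (SE 0.21) did not pass the test (adjusted p = 0.0775, edgeR quasi-likelihood test). It passed with no filter (0.00429), in DESeq2 (0.0212) and without knockout replicate 1 (0.0192). The difference between lines was -0.68 (SE 0.33, adjusted p = 0.305) and was not called.

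Counted together, none of the 6 members not picked for a line-specific response was called in A549, where 2.14% of 20093 genes were called by the edgeR quasi-likelihood test. At an unadjusted p under 0.05 there were 3, DESeq2 called 2 and limma-voom 0. Of these 6 members, KRT80 was higher and KRT7 and JUP were lower in every A549 knockout library. Among 20153 genes, 25.5% differed without overlap in either direction. In H1299, 4 of the 6 passed the filter and 2 of them, KRT80 and VIM, were called lower. Over 20194 genes tested in H1299, 8.84% were called, 4.66% higher and 4.18% lower. Of the 6, all but JUP were lower without overlap in H1299, KRT7 and DSP at few counts. Among 19943 genes with a mean count of at least 10, which leaves out KRT7 and DSP, 30.3% differed without overlap there in either direction. The median log2 fold change over all genes tested was -0.0070 in A549 and -0.0034 in H1299, and the median shift of the chromosome arm 12q, which carries KRT7, KRT8, KRT18 and KRT80, was 0.020 in A549 and -0.072 in H1299.

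**Figure D3:**
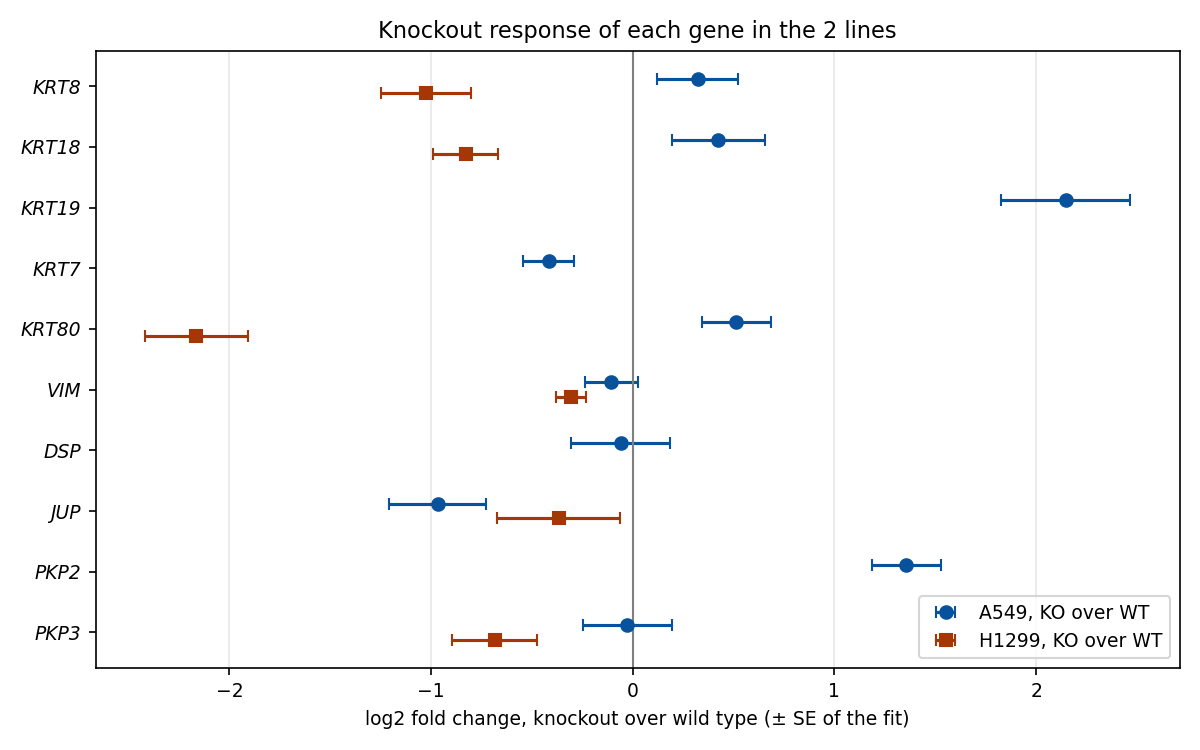
Log2 fold change, knockout over wild type (x axis), of each member (y axis) in A549 (circles) and H1299 (squares), with bars for the SE of the edgeR fit (n = 3 against 3). KRT7, KRT19, DSP and PKP2 have no H1299 point because they did not pass the filter there; KRT80 reaches -2.16 in H1299 and 0.51 in A549.

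Between the wild-type lines, all 6 members not picked for a line-specific response differed by the edgeR quasi-likelihood test, as did 65.6% of 22635 genes tested. JUP was lower in H1299 by a log2 difference of -6.68 (SE 0.34, adjusted p = 2.73e-09), KRT80 by -2.40 (SE 0.24, adjusted p = 1.29e-06) and PKP3 by -1.47 (SE 0.24, adjusted p = 0.000113), all from the edgeR fit. VIM was higher in H1299 by 1.13 (SE 0.11, adjusted p = 1.43e-06, edgeR). For the genes near 0 in H1299, pooled wild-type counts gave ratios of A549 to H1299 with 95% exact intervals that cover counting error only. These ratios were scaled by total counts alone, not by the effective library sizes used for CPM. The ratio was 9746 (5808 to 17827) for KRT7, from 89938 against 14 counts. It was 382 (270 to 559) for DSP, from 8053 against 32 counts. For PKP2 it was 94.2 (53.6 to 183), and for KRT19, with 3 counts in H1299, 950 (325 to 4612).

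For the plaque genes DSP and JUP, lower in H1299, and VIM, which was higher, a window before an annotated start is shown. Each is the 250 bases before an annotated start (RefSeq, GRCh38.p14), on the gene's strand. Capitals mark CAGGTG, searched on both strands (CACCTG), an E-box that repressors such as SNAI1 and ZEB1 are known to bind in epithelial promoters. DSP is at chr6:7541421-7541670 on the plus strand, JUP at chr17:41785977-41786226 on the minus strand and VIM at chr10:17227991-17228240 on the plus strand.
DSP: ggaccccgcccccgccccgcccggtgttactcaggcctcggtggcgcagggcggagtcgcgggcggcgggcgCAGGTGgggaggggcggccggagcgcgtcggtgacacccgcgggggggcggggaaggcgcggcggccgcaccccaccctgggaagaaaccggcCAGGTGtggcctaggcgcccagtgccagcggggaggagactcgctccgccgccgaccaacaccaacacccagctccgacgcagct
JUP: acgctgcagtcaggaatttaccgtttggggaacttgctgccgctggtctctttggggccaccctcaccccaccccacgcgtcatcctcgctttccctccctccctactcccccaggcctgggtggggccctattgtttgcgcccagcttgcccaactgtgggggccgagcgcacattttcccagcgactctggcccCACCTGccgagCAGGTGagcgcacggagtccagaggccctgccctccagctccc
VIM: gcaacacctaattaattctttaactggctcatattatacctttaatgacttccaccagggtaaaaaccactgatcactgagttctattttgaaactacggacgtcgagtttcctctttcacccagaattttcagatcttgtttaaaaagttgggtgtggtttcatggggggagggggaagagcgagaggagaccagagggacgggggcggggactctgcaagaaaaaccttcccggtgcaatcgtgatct
DSP holds the motif 178 and 85 bases before the RefSeq start, JUP 54 and 43 bases before it, and VIM holds none. The DSP match at 85 bases lies inside the GENCODE span of DSP. A second JUP window, chr17:41786712-41786961, reaches the outer end of the JUP span and holds none. KRT8, also lower in H1299, had 1 window, chr12:52926470-52926719, which holds none either. That window lies inside the KRT8 span, and other KRT8 starts were not searched. The motif occurred in 17.5% of 35116 windows of the same length. A match is only a description of the letters, and binding was not tested. Of the 10 members, these 4 had such a window.

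Compared per length (CPM per kilobase of the union of annotated exons), KRT18 led in A549 wild type at 554 ± 186 (SD, n = 3), followed by KRT7 at 410 ± 56.0, KRT8 at 297 ± 83.9 and VIM at 228 ± 33.6. KRT18 and KRT7 overlapped between libraries, as did KRT8 and VIM. JUP followed at 54.6, KRT80 at 29.8, KRT19 at 14.8, DSP at 14.4, PKP3 at 5.06 and PKP2 at 1.96, and KRT19 overlapped with DSP. In A549 knockout KRT18 stood at 749 ± 50.5, KRT8 at 374 ± 16.1, KRT7 at 310 ± 1.81 and VIM at 214 ± 11.2 per kilobase, with no overlap between neighbours. KRT19 came next at 66.1, above KRT80 at 42.9, JUP at 28.2, DSP at 13.99, PKP2 at 5.07 and PKP3 at 5.01. The last 2 overlapped, as did KRT80 and JUP. VIM led in H1299, with 498 ± 48.4 in wild type and 402 ± 10.7 after the knockout, before KRT18 at 66.6 and 37.4, KRT8 at 14.7 and 7.19, and KRT80 at 5.62 and 1.25. PKP3 stood at 1.83 and 1.13 and JUP at 0.524 and 0.406, and the remaining 4 members were below 0.04. KRT80 and PKP3 overlapped in the H1299 knockout. Per kilobase of the longest transcript, KRT7 led in A549 wild type at 957 before KRT18 at 853, and PKP3 stood above KRT80 in the H1299 knockout.

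The mixture of the 5 keratins per length also differed by line. In A549 wild type KRT18 made up 36.5% to 45.03% of their sum, KRT7 28.2% to 38.7%, KRT8 20.8% to 24.5% and KRT19 0.758% to 1.42%. In the A549 knockout KRT18 made up 47.1% to 49.8%, KRT7 19.3% to 20.7%, KRT8 24.1% to 24.4% and KRT19 3.57% to 4.92%. The share of KRT7 was thus lower, and that of KRT18 and KRT19 higher, in every knockout library than in every wild-type library. In H1299 KRT18 made up 74.2% to 79.5% in wild type and 80.2% to 82.7% in the knockout, and KRT80 5.19% to 7.46% and 2.38% to 2.98%. The log2 ratio of type II to type I chains was 0.42 ± 0.29 (SD, n = 3) in A549 wild type and -0.16 ± 0.043 in the knockout. It was -1.74 ± 0.21 in H1299 wild type and -2.16 ± 0.12 in the knockout. These ratios depend on the length used: with the longest transcript the A549 knockout value was 0.40 and the wild-type value 1.00. They also leave out KRT81, a hair keratin of type II. It was at 1037 to 1803 CPM in A549 wild type and 1784 to 2789 in the knockout, with 0 counts in H1299. Per kilobase of exon union KRT81 was at 738 ± 198 (SD, n = 3) in A549 wild type and 1120 ± 284 in the knockout. In the knockout the type I chains KRT18 and KRT19 summed to 815 ± 42.6. With KRT81 counted, type II chains would exceed type I there, so the negative value holds only for the 5 keratins. The A549 change with the knockout was not computed with KRT81 included. The KRT8 to KRT18 ratio per length was 0.498 to 0.570 in A549 wild type, 0.488 to 0.512 in the knockout, 0.192 to 0.247 in H1299 wild type and 0.181 to 0.211 in the knockout. With the longest transcript it was 0.776 to 0.889, 0.761 to 0.799, 0.300 to 0.385 and 0.282 to 0.329 in the same order. VIM amounted to 0.162 to 0.207 times the summed keratins in A549 wild type and 0.129 to 0.148 in the knockout. In H1299 it was 4.76 to 6.51 times the sum in wild type and 7.50 to 11.2 in the knockout.

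**Figure D4:**
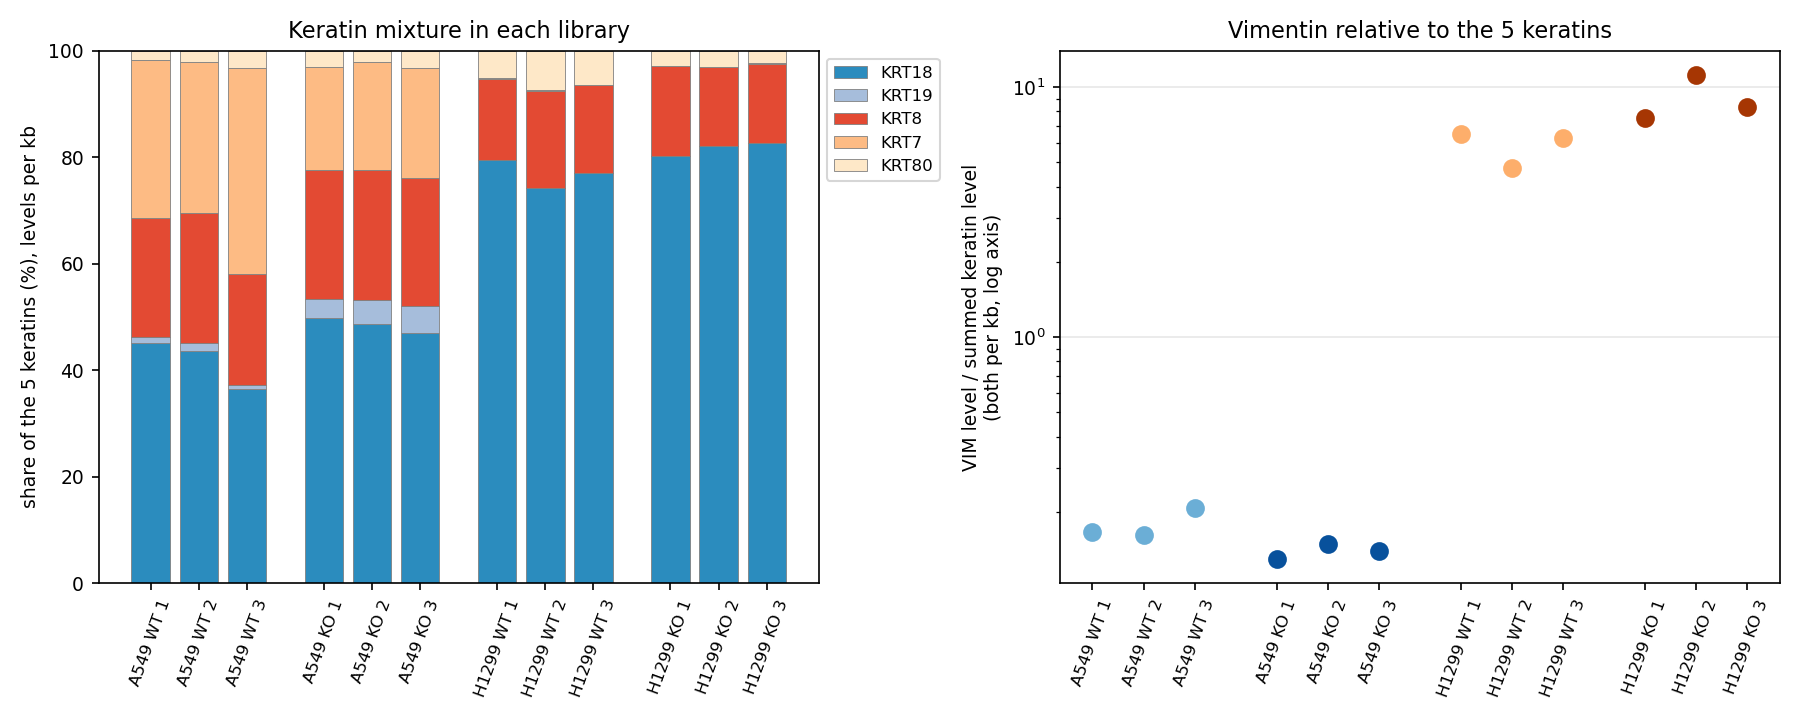
Left, share of each keratin in the summed level of the 5 keratins per kilobase (%) in each library; right, ratio of the VIM level to that sum, both per kilobase, on a log axis, one point per library. KRT7 makes up 28.2% to 38.7% in A549 wild type and 19.3% to 20.7% in A549 knockout, and VIM exceeds the keratins only in H1299.

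Other genes of the same structures were read from lists chosen with earlier results known. Their counts stand beside 2.14% of all genes called in A549, 8.84% in H1299 and 3.48% for the difference between lines. Of 21 other type II keratins, 6 were tested in A549 and none was called by edgeR (3 at an unadjusted p under 0.05, DESeq2 2, limma-voom 0). In H1299 none of them passed the filter. Of 15 other type I keratins, 2 were tested in H1299 and 1 was called: KRT15, a keratin of basal cells, was at 4.76, 6.45 and 7.11 CPM in wild type and 1.13, 1.07 and 1.29 in the knockout (log2 fold change -2.38, SE 0.20, adjusted p = 0.000676, edgeR quasi-likelihood test). Its libraries did not overlap in H1299. In A549 KRT15 was at 1.23 to 6.37 CPM in wild type and 2.24 to 7.85 in the knockout, and the difference between the lines was -2.86 (SE 0.70, adjusted p = 0.0425, edgeR). Among 14 other intermediate filament genes, 10 were tested in H1299, of which 1 rose and 2 fell. LMNA, which encodes the nuclear lamins A and C, was at 489, 439 and 413 CPM in wild type and 240, 170 and 209 in the knockout (log2 fold change -1.11, SE 0.12, adjusted p = 0.00205, edgeR). SYNM, which encodes synemin, a vimentin partner, fell by 0.60 on the log2 scale (adjusted p = 0.0129, edgeR). NEFH, the heavy neurofilament chain, rose by 0.52 (adjusted p = 0.0104, edgeR) and had 0 to 5 counts in the A549 libraries. The difference between lines was called for LMNA (-0.99, SE 0.23, adjusted p = 0.0333, edgeR) and LMNB1 (-0.65, SE 0.14, adjusted p = 0.0237, edgeR), 2 of 10 tested. It was called for 1 of 3 other type I keratins, 1 of 11 cytolinker and hemidesmosome genes and 1 of 10 epithelial transcription factors. None was called of 6 other type II keratins, 3 desmosomal cadherins, 4 other plaque genes, 10 adherens and 12 tight junction genes. At an unadjusted p under 0.05 these last 5 lists held 0, 1, 1, 3 and 4.

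Desmosomal cadherins are the adhesive partners of the plaque proteins. Of 7 listed, 3 were tested in A549 and none was called by edgeR (2 at an unadjusted p under 0.05, DESeq2 1, limma-voom 0), and none passed the filter in H1299. DSG2, the desmoglein of simple epithelia, was at 103, 154 and 188 CPM in A549 wild type and 201, 128 and 230 in the knockout, overlapping groups, with 0 to 20 counts in the H1299 libraries. Of 6 other desmosome and plaque genes, 3 were tested in H1299. PPL, which encodes periplakin, a cytolinker related to desmoplakin, was at 26.4, 33.3 and 20.8 CPM in wild type and 14.9, 3.63 and 9.69 in the knockout (log2 fold change -1.50, SE 0.38, adjusted p = 0.0420, edgeR). DESeq2 called none of the 3. In A549, 4 of the list were tested and none was called by edgeR (2 at an unadjusted p under 0.05, DESeq2 2, limma-voom 0).

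Hemidesmosomes anchor keratins to the basement membrane. Of 11 cytolinker and hemidesmosome genes, 10 were tested in H1299, of which 1 rose (ITGA6) and 3 fell, among them ITGB4 and PLEC. ITGB4, the integrin chain that binds plectin, was at 7.04, 9.23 and 4.0 CPM in H1299 wild type and 3.56, 1.28 and 1.98 in the knockout (log2 fold change -1.56, SE 0.37, adjusted p = 0.0337, edgeR). In A549 ITGB4 was at 58.7, 70.3 and 45.7 CPM in wild type and 106, 122 and 87.5 in the knockout, higher in all knockout libraries but not called (0.84, SE 0.19, adjusted p = 0.0596, edgeR). Its difference between lines was -2.42 (SE 0.45, adjusted p = 0.0137, edgeR). ITGA6, its partner, rose by 0.73 in H1299 (adjusted p = 0.0167, edgeR), and PLEC, which encodes plectin, fell by 0.74 (adjusted p = 0.0201, edgeR). In A549 none of the 11 tested was called (2 at an unadjusted p under 0.05, DESeq2 2, limma-voom 0).

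Of 12 adherens junction genes, 9 were tested in A549 and 1 was called lower: CTNNA2, an alpha-catenin of neurons, with 24, 17 and 29 counts in wild type and 0, 0 and 7 in the knockout. None of the 7 tested in H1299 was called by edgeR (3 at an unadjusted p under 0.05, DESeq2 2, limma-voom 0). CTNNB1, which encodes beta-catenin, the close relative of plakoglobin, had a log2 fold change of -0.01 (SE 0.13) in A549 and 0.06 (SE 0.089) in H1299. Of 12 tight junction genes, 11 were tested in A549 and CLDN2, a pore-forming claudin, was called higher (1.81, SE 0.25, adjusted p = 0.0196, edgeR). In H1299, 10 were tested, of which OCLN (0.54) and CLDN1 (0.52) rose and CGN (-0.49) and F11R (-0.60) fell on the log2 scale. Of 14 epithelial transcription factors, 10 were tested in A549 and EHF, an ETS factor of epithelia, rose from 1.70, 3.44 and 0.896 CPM to 24.1, 29.3 and 33.5 (log2 fold change 3.81, SE 0.40, adjusted p = 0.0121, edgeR). In H1299, 5 were tested and KLF4, a factor of epithelial differentiation, fell from 5.95, 6.33 and 4.40 CPM to 0.745, 0.825 and 0.972 (-2.71, SE 0.20, adjusted p = 0.000319, edgeR). KLF4 in A549 was at 5.60 to 9.14 CPM in wild type and 5.84 to 9.45 in the knockout, and its difference between lines was -2.78 (SE 0.35, adjusted p = 0.00188, edgeR).

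The genes whose pattern over the 12 libraries was most like that of the 4 picked members were found by the root-mean-square difference of centred log2(CPM + 0.5) among 13607 genes. This is a description over libraries that share the lines and the genotypes. For KRT8 these were its pseudogenes KRT8P3 (0.29) and KRT8P10 (0.33) and CAPG (0.37), which encodes an actin-capping protein. For KRT18 they were SERINC2 (0.22), the pseudogene KRT18P17 (0.25) and HCG20 (0.31). For KRT19 they were CLDN2 (0.37), FRAS1 (0.37) and SLC27A2 (0.56), and for PKP2 they were CTSS (0.32), NHS (0.35) and FZD8 (0.36). Each gene named for KRT19 and PKP2 was at most 1.24 CPM in any H1299 library and met the minimum mean only through A549. CLDN2 was at 42.0, 67.7 and 35.7 CPM in A549 wild type and 209, 156 and 149 in the knockout, and had 0 or 1 counts in each H1299 library.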

How the data were processed

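The values are raw RNA-seq counts per gene, deposited by the authors in a table for each line (6 libraries and 59050 symbols). Culture lasted 48 h and a stranded mRNA kit was used with 1 µg of RNA, per the labels' protocols. The submitters' processing notes name bcl2fastq 2.20.0.422 and the mouse build GRCm38.p6, while the symbols are human. The aligner, the counter and its use of strand are not given in the sources used here.

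The counts were tested with the edgeR 4.0.16 quasi-likelihood test in R 4.3.3 (TMM scaling, filterByExpr with a minimum count of 10, Benjamini-Hochberg over all genes, threshold 0.05), separately in each line for knockout against wild type. One fit over all 12 libraries gave the difference of the effects (H1299 minus A549) and the contrast of the wild-type lines. CPM are counts divided by the total times the TMM factor over 12 libraries. Positions and lengths are from GENCODE 29, matched by symbol (95.1% of rows found once). With 3 against 3 libraries an exact two-sided permutation test cannot go below p = 0.1, so p-values rest on the model. No pair of replicates agreed within sampling noise. A floor is 3 counts.

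The members and the 12 gene lists were chosen with earlier results of these data known. Other named genes are those called in each list, at most 4 a list, the 3 most alike genes, and pseudogenes or overlapping genes. KRT81, DSG2, CTNNB1, CD68, PTPRC and CD3E were named after their values were seen. So were the genes that check the lines and the uncalled values given beside a called gene. Alternatives were RLE size factors, no scaling, DESeq2 1.42.0, limma-voom (limma 3.58.1), no filter, at least 1 CPM in 3 libraries, centring within chromosome arms, the 12-library fit, the longest transcript as length, and each library left out. The scripts were tested on simulated data. Some genes and sequences are not reported here.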

Additional observations from a re-analysis of the deposited data

Results flagged for a closer look

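The response of KRT80 differed between the lines by the interaction test: the H1299 effect minus the A549 effect was -2.69 on the log2 scale (SE 0.33, adjusted p = 0.00174, edgeR quasi-likelihood test). KRT80 was at 24.5 ± 9.30 CPM (SD, n = 3) in H1299 wild type and 5.44 ± 1.01 in the H1299 knockout. The A549 levels were 130 ± 5.87 (wild type) and 187 ± 40.4 (knockout). Over the alternatives the difference ran from -2.86 to -2.33, and it was called in each of them.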

How the results depend on the processing

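No paired analysis was possible because the labels give no replicate numbers that groups share. The count of genes called in A549 was 430, and it was 1275 with no filter, 1543 with DESeq2, 237 after centring within chromosome arms, 1772 in the 12-library fit and 10 to 1016 with a library left out. For H1299 it was 1786, and 3077 with no filter, 559 in the 12-library fit and 471 to 1469 with a library left out. For the difference between lines it was 788, and 1239 with no filter, 1706 with DESeq2, 421 after centring within arms and 310 to 1359 with a library left out. The wild-type contrast ran from 13890 to 15090 with a library left out, against 14844. With the longest transcript as length, the type II to type I log2 ratio was 1.00 in A549 wild type, 0.40 in A549 knockout (a change of sign from -0.16), -1.33 in H1299 wild type and -1.64 in H1299 knockout, and 6 of 10 members kept their rank in the H1299 knockout, against 8 in A549 wild type and 10 in the other groups.

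Other changes of sign were in these values. The A549 log2 fold change of PKP3 was 0.0032 without scaling and 0.014 with limma-voom. With a library left out it ran from -0.24 to 0.14, DSP in A549 ran from -0.28 to 0.12, VIM in A549 from -0.18 to 0.028, and the PKP2 difference between lines, which rests on few H1299 counts, from -1.13 to 0.17. The causes were not tested. KRT7, KRT19, DSP and PKP2 had at most 16 counts in any H1299 library and were not tested in the fit of that line.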
